A study of Mus musculus with 12 samples.

Results

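The Notch genes described here were the receptors Notch1, Notch2 and Notch3, the ligands Jag1, Jag2 and Dll1, and the transcription factor genes Hes1, Hes6, Hey1 and Heyl. They were chosen by name with earlier results of these data known, so their shares below do not describe an independent list. Each symbol matched 1 Ensembl identifier among the 48795 genes counted. All 10 passed the filter on low counts, which left 14838 genes for testing. In H2O2-treated myotubes the ligands moved apart: Jag1 rose 1.98-fold over vehicle, whereas Dll1 fell to 0.27 and Jag2 to 0.574 of the vehicle level. Heyl fell to 0.182 of vehicle, Hes1 to 0.616 and Hey1 to 0.60, and no receptor passed the test. The calls of Jag2, Hes1 and Hey1 depended on the processing and held in 12, 18 and 9 of 22 alternative settings. For gRc, with or without H2O2, none of the 10 and 0% of all genes tested passed at an adjusted p under 0.05 in edgeR. This does not show that gRc left them unchanged.

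Notch is a signal between touching cells. A ligand of the Delta or Jagged family on one cell binds a Notch receptor on its neighbour, and gamma-secretase then cuts the receptor inside the membrane. The freed intracellular domain enters the nucleus, joins the DNA-binding protein RBPJ and a Mastermind coactivator, and switches on genes of the HES and HEY repressor families. In skeletal muscle Notch signalling is known for holding back myoblast differentiation and for keeping satellite cells, the muscle stem cells, in reserve.

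The cells were C2C12, an established mouse line that grows as myoblasts and fuses into myotubes in low serum. They were differentiated for 5 days in horse serum and fell into 4 groups of 3 libraries each. The vehicle group received diluted DMSO for 24 h, and the gRc group received 10 µM ginsenoside Rc, a ginseng saponin, for 24 h. The H2O2 group received vehicle for 18 h and then 0.25 mM H2O2, an oxidative stress, for 6 h. The gRc+H2O2 group received 10 µM gRc for 18 h before the same H2O2 exposure, although 1 label of this group gives 24 h of pretreatment. The cell type tag reads myoblasts, while the series title and design name myotubes. All cells are of 1 line, and the labels do not say that replicates were separate cultures, so p-values measure the spread between libraries, which may be technical in part.

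The libraries held between 19274762 and 31409066 counts. On the first principal component, which carried 43.1% of the variance, vehicle 1 lay at -68.6, while vehicle 3 and gRc 3 lay at 82.3 and 84.2. On a GC scale (GC-poor minus GC-rich genes, log2) vehicle 1 was lowest at -0.90 and gRc 3 highest at 0.51, followed by gRc+H2O2 2 at 0.42 and vehicle 3 at 0.41. Muscle markers were abundant in every library, with Myh3 (embryonic myosin) between 2288 and 6270 CPM (counts-per-million). The summed markers of endothelial cells (at most 2.50 CPM), macrophages (at most 3.34 CPM) and adipocytes (at most 0.621 CPM) were near 0, and 2 of 6 endothelial and 1 of 4 adipocyte markers were at 0 in all 12 libraries. The fibroblast list, which is carried by Col1a1 and Col3a1, summed to between 3589 and 25320 CPM, and its highest value was in vehicle 1. In H2O2 against vehicle 4 of 8 tested markers of undifferentiated myogenic cells fell, among them Pax7 (log2 fold change -1.27) and Spry1 (-1.76), as did 2 of 10 cycling markers, beside 7.84% of all genes tested. Of the 10 markers of differentiated muscle 0 passed in edgeR (1 at an unadjusted p under 0.05, beside 29.8% of all genes, and 0 by DESeq2). They had a median of -0.38 and summed to 12820 to 13420 CPM in vehicle and to 9958 to 10850 CPM in H2O2. The part of these shifts in the values below was not tested, and in bulk RNA fewer cells of a type and less RNA per cell cannot be told apart.

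The ligand genes Jag1 and Dll1 moved in opposite directions, so their promoter sequences are shown first. RefSeq promoter windows were at hand for 7 of the 10 genes, Notch1, Notch2, Notch3, Jag1, Jag2, Dll1 and Hes6. Bases before the gene are given 5′ to 3′ on the gene's own strand, which is the minus strand for both (build GRCm38.p6), at chr2:137116645-137116770 for Jag1 and at chr17:15376933-15377182 for Dll1. The Jag1 stretch has 126 bases, since the rest of its window up to the RefSeq start lies within the GENCODE gene and is not shown. The Dll1 stretch has 250 bases and ends at a RefSeq start outside the GENCODE gene, which begins at 15376872. The bases between that start and the gene are not shown. Capitals mark a match to the AP-1 motif.
Jag1: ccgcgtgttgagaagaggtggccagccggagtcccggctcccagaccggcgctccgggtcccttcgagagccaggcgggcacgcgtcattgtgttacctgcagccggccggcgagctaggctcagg
Dll1: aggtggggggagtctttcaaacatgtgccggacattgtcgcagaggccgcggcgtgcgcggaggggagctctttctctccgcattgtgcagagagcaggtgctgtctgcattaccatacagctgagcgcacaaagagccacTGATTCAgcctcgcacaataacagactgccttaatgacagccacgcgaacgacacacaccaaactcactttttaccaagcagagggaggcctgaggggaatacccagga

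The motifs were searched on both strands in the 250 bases before each RefSeq start. The core of the RBPJ site, TGGGAA, occurs in 21.6% of 32851 such windows in the mouse and in none of the 7. The AP-1 motif TGANTCA, which Fos and Jun proteins bind, occurs in 6.75% of windows and once here, in Dll1, 109 bases before its RefSeq start. The E-box CACGTG occurs in 6.02% of windows and in none of the 7. A match describes letters only, and motifs farther from the start were not searched.

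Levels between genes were compared on the TPM (transcripts-per-million) of the authors, which correct for transcript length. In vehicle myotubes Hes6, a HES protein known to antagonise Hes1 and to favour differentiation, stood at 330 ± 192 TPM (SD, n = 3), and Hes1 at 80.6 ± 19.9 TPM. Notch3 followed at 34.7 ± 13.9 TPM, Dll1 at 25.1 ± 16.1 TPM and Notch2 at 23.3 ± 2.17 TPM. Heyl (13.9 ± 2.20 TPM), Jag2 (10.3 ± 2.69 TPM), Notch1 (8.76 ± 2.36 TPM), Hey1 (5.66 ± 1.40 TPM) and Jag1 (3.25 ± 0.473 TPM) were lower. Neighbours in this order overlapped between libraries for Notch3 and Dll1, Dll1 and Notch2, Heyl and Jag2, and Jag2 and Notch1. The mean effective length that RSEM assigned a gene also varied between libraries. It ran from 507 to 1181 bases for Hes1 and from 1583 to 2945 bases for Dll1. TPM can therefore move where the count does not, and a count can move with length where transcript number does not. The main comparisons between groups below use counts without a correction for these lengths, shown as CPM after TMM scaling. TMM gives each library a scaling factor, meant to keep differences in composition from biasing the depth.

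**Figure D1:**
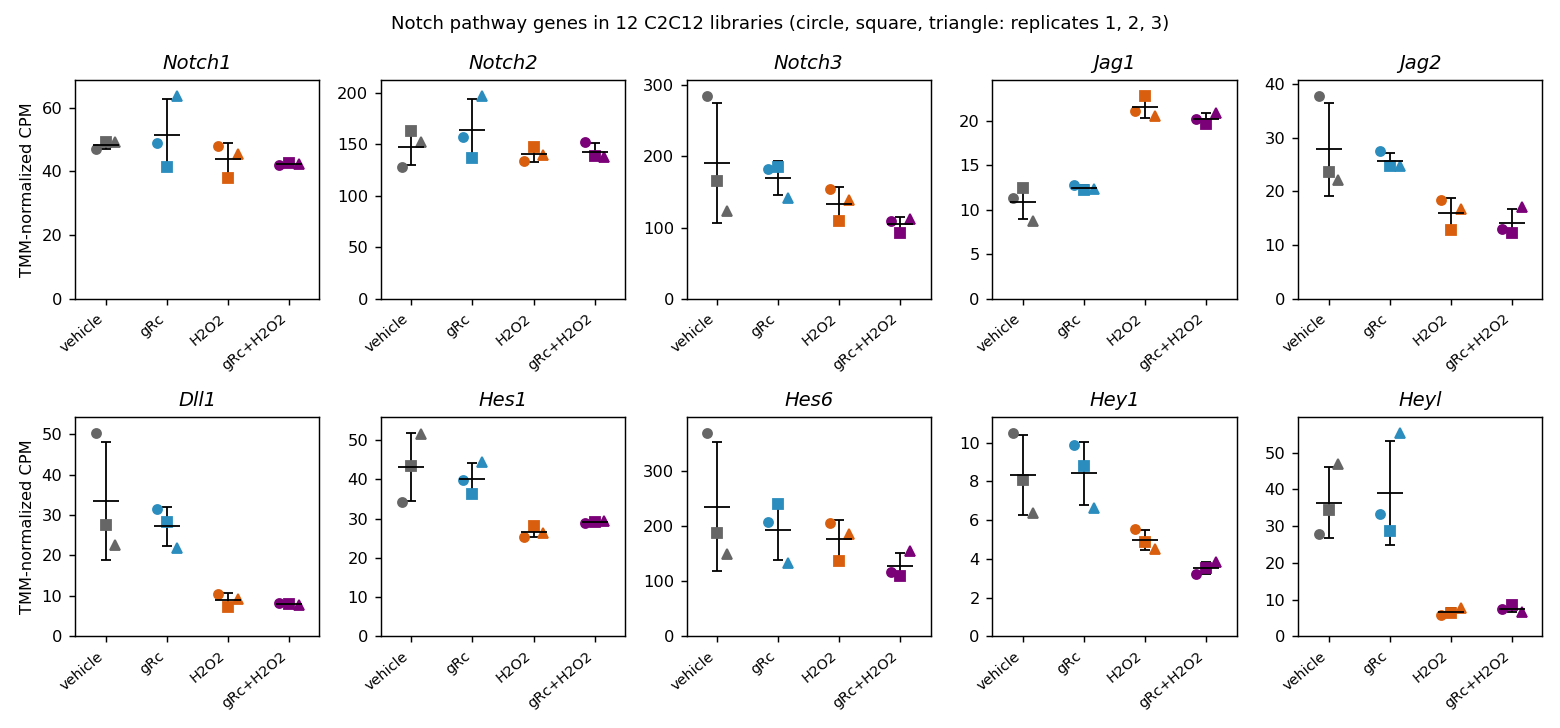
TMM-normalized CPM (y axis, from 0) of the 10 Notch genes in the 12 libraries by group (x axis). Points are libraries, the horizontal line is the mean and bars are 1 SD (n = 3); Jag1 is higher, and Jag2, Dll1, Hes1, Hey1 and Heyl are lower, in all 6 libraries with H2O2 than in all 6 without.

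The first question was how the 6 h of H2O2 moved each Notch gene, tested with edgeR's quasi-likelihood F test in a fit of all 12 libraries. Of the 10 genes 1 rose and 5 fell at an adjusted p under 0.05 (Benjamini-Hochberg over 14838 genes). Over all genes 15.7% passed, 7.81% rising and 7.84% falling. The median log2 fold change of the 10 was -0.60, against -0.06 over all genes. The same exposure in gRc-treated cells, gRc+H2O2 against gRc, uses the other 6 libraries, and there 1 of the 10 rose and 4 fell where 15.7% of all genes passed, 7.57% rising and 8.15% falling. The median of the 10 was -0.65 there, against -0.04 over all genes.

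The receptors came first. Notch1, on the minus strand of chromosome 2 (GRCm38, 26457903 to 26516663), read 47.0, 49.2 and 49.1 CPM in vehicle and 47.8, 38.0 and 45.6 CPM in H2O2. In gRc it read 49.02, 41.5 and 63.6 CPM and in gRc+H2O2 41.9, 42.6 and 42.3 CPM. The groups overlapped in each of the 4 comparisons, and the log2 fold changes for H2O2 were -0.15 (SE 0.16) without gRc and -0.28 (SE 0.16) with it, at adjusted p = 0.587 and 0.275 in edgeR.

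Notch2, which with Notch1 carries much of the signal in muscle stem cells, lies on the plus strand of chromosome 3 (98013527 to 98150361). It held 128, 164 and 152 CPM in vehicle, 157, 137 and 197 CPM in gRc, 134, 148 and 140.0 CPM in H2O2, and 152, 138 and 138 CPM in gRc+H2O2. It overlapped between all groups, and its H2O2 effects of -0.08 (SE 0.15) and -0.19 (SE 0.15) carried adjusted p = 0.793 and 0.465 (edgeR). The 95% intervals, -0.42 to 0.27 and -0.53 to 0.15, leave room for a modest change either way.

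Notch3 is a receptor whose loss in mouse muscle is known to leave more satellite cells, and it lies on the minus strand of chromosome 17 (32120820 to 32166852). Of the receptors it had the widest spread among the vehicle libraries (SD 83.9 CPM, against 18.2 CPM for Notch2), with 284.5, 165 and 123 CPM in vehicle and 182, 184 and 142 CPM in gRc. With H2O2 it read 154, 109 and 138.5 CPM, and with gRc+H2O2 109, 92.6 and 112.5 CPM. Vehicle 3 lay within the range of the H2O2 libraries, while all 3 gRc+H2O2 libraries were below all 3 gRc libraries. The fold changes were -0.51 (SE 0.27) and -0.70 (SE 0.27), and neither passed (edgeR, adjusted p = 0.235 and 0.116). The first passed in 1 of 22 alternative settings and the second in 5, among them the fit without vehicle 1 (adjusted p = 0.0197, edgeR). Vehicle 1 lies outside the groups of the second comparison and enters through the shared fit. Notch1, Notch2 and Notch3 overlap other annotated genes, those of Notch2 on its own strand. As it is not stated whether counting used strand, reads of antisense neighbours may be included for Notch1 and Notch3.

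The ligands were the group in which every member passed in both comparisons. Jag1, on the minus strand of chromosome 2 (137081456 to 137116644), read 11.4, 12.4 and 8.77 CPM in vehicle and 21.1, 22.8 and 20.6 CPM in H2O2. In gRc it held 12.8, 12.2 and 12.3 CPM, and in gRc+H2O2 20.2, 19.6 and 20.9 CPM. Each H2O2 library was above each library without H2O2, with no value between 12.8 and 19.6 CPM. Jag1 rose by 0.98 (SE 0.14) on the log2 scale without gRc and by 0.70 (SE 0.14) with it (edgeR, adjusted p = 0.00161 and 0.00801), and it passed under all 22 alternative settings in both comparisons.

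Dll1 is a Delta ligand that myogenic cells present to their neighbours, and it lies on the minus strand of chromosome 17 (15367354 to 15376872). It showed 50.2, 27.6 and 22.7 CPM in vehicle and 31.5, 28.3 and 21.96 CPM in gRc. H2O2 brought 10.6, 7.22 and 9.31 CPM, and gRc+H2O2 8.20, 7.92 and 7.85 CPM. The lowest library without H2O2 was above the highest with it. The log2 fold changes were -1.89 (SE 0.28) and -1.77 (SE 0.28), or 3.70-fold and 3.41-fold lower, and Dll1 also passed under all 22 settings in both comparisons (edgeR, adjusted p = 0.00172 and 0.00219). An antisense gene, A930024N18Rik, overlaps Dll1.

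Jag2, the second Jagged ligand (chromosome 12, minus strand, 112907819 to 112929776), held 37.8, 23.6 and 22.1 CPM in vehicle and 18.4, 12.9 and 16.7 CPM in H2O2. It held 27.5, 24.7 and 24.7 CPM in gRc and 13.1, 12.3 and 17.1 CPM in gRc+H2O2. All 6 libraries with H2O2 were lower than all 6 without it, and the log2 fold changes were -0.80 (SE 0.23) and -0.86 (SE 0.23) at adjusted p = 0.0353 and 0.0263 (edgeR). The second call held in 18 of 22 settings. The first was close to the threshold and held in 12. It was lost on leaving out vehicle 1 (-0.52), gRc 1 or 2, any H2O2 library, or gRc+H2O2 1 or 2, with adjusted p between 0.0503 and 0.135. The second was lost without gRc 1 or 2 or gRc+H2O2 1 or 2, at adjusted p between 0.0611 and 0.115 (edgeR).

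Among the HES and HEY genes Heyl showed the lowest fold change of the 10 in both comparisons. Heyl, a HEY repressor known as a Notch target in muscle stem cells (chromosome 4, plus strand, 123233556 to 123249875), read 27.9, 34.3 and 46.9 CPM in vehicle and 33.3, 28.6 and 55.3 CPM in gRc. With H2O2 it read 5.69, 6.48 and 7.74 CPM, and with gRc+H2O2 7.40, 8.49 and 6.60 CPM. The lowest value without H2O2 was more than 3 times the highest with it. The log2 fold changes were -2.45 (SE 0.28) and -2.38 (SE 0.28), or 5.48-fold and 5.20-fold lower (edgeR, adjusted p = 0.000333 and 0.000403), and both held under all 22 settings.

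Hey1, the related repressor that acts beside Heyl in mouse satellite cells (chromosome 3, minus strand, 8663359 to 8667256), was the least abundant of the 4 factors per transcript length in vehicle (5.66 TPM, against 13.9 TPM for Heyl), but not in H2O2 (3.35 against 2.50 TPM). It held 10.48, 8.09 and 6.38 CPM in vehicle, 9.86, 8.77 and 6.65 CPM in gRc, 5.55, 4.88 and 4.51 CPM in H2O2, and 3.23, 3.53 and 3.85 CPM in gRc+H2O2. No library with H2O2 reached the lowest library without it. It fell by 0.74 (SE 0.22) without gRc and by 1.25 (SE 0.22) with it, at adjusted p = 0.0417 and 0.00376 in edgeR. The first call held in 9 of 22 settings. On leaving out 1 library it was lost except without vehicle 3 or gRc 3, at adjusted p between 0.0507 and 0.147, while the second held in 22 of 22.

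Hes1, the canonical Notch target (chromosome 16, plus strand, 30064384 to 30067796), read 34.3, 43.4 and 51.5 CPM in vehicle and 25.4, 28.0 and 26.3 CPM in H2O2. It read 39.7, 36.1 and 44.4 CPM in gRc and 28.9, 29.1 and 29.5 CPM in gRc+H2O2. All libraries with H2O2 were below all without it. The log2 fold changes were -0.70 (SE 0.15) and -0.46 (SE 0.15), of which the first passed and the second did not (edgeR, adjusted p = 0.0117 and 0.0668). The second passed in 5 of 22 settings, among them the fits without vehicle 1 (adjusted p = 0.0185) and without vehicle 3 (0.0323). On TPM the first shrank to -0.24 and was not called (limma, adjusted p = 0.632). There the effective length of Hes1 was 617, 662 and 1138 bases in vehicle and 507, 593 and 561 bases in H2O2.

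Hes6 (chromosome 1, minus strand, 91411483 to 91414038), which in neural and muscle cells is switched on by proneural or myogenic factors, varied as much within vehicle as between groups. It read 369, 188 and 150 CPM in vehicle, 207, 240.0 and 133 CPM in gRc, 206, 137 and 186 CPM in H2O2, and 117, 110 and 156 CPM in gRc+H2O2. The groups overlapped in both comparisons, and neither -0.42 (SE 0.33) nor -0.60 (SE 0.33) passed (edgeR, adjusted p = 0.444 and 0.273). The first passed in 0 of 22 settings and the second in 3, and without vehicle 1 the first value turned to 0.06.

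**Figure D2:**
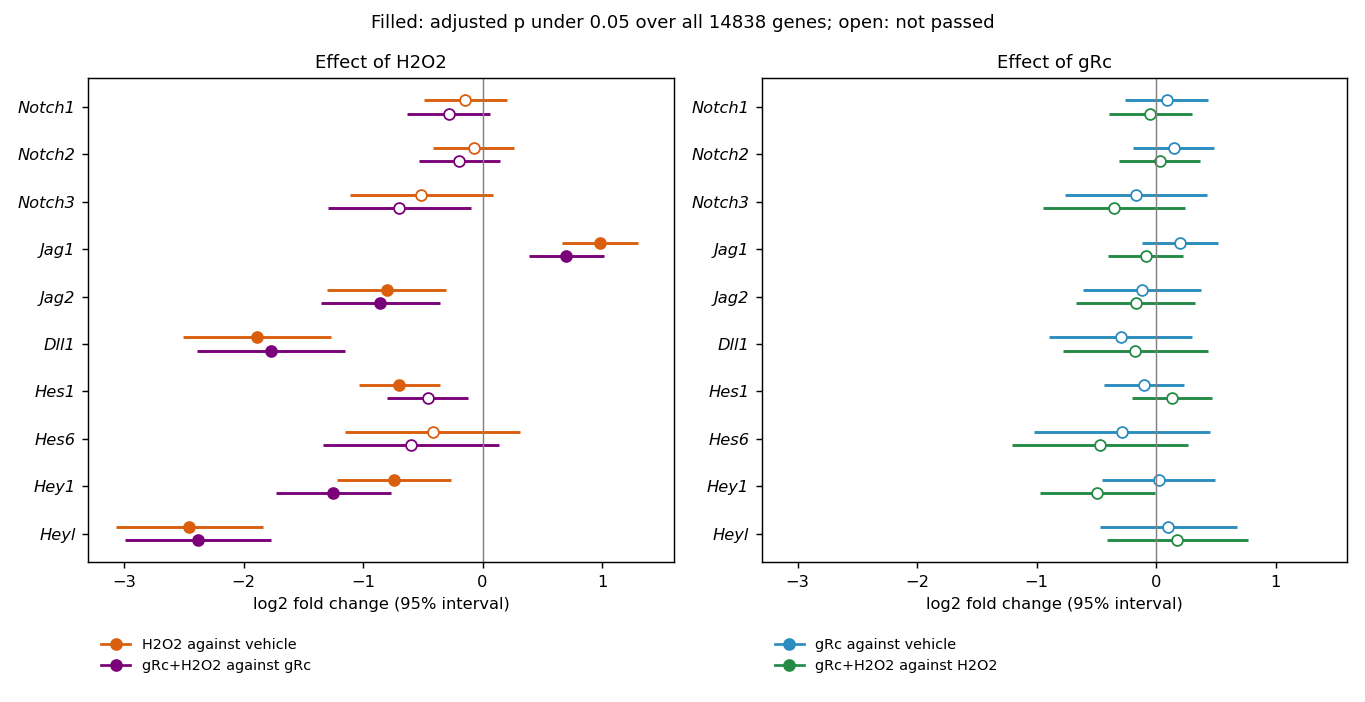
Log2 fold changes (x axis) of the 10 genes with 95% intervals from edgeR, for H2O2 (left) and for gRc (right), filled where the adjusted p over all 14838 genes is under 0.05. Jag1 lies to the right and Dll1 and Heyl lie farthest to the left in both H2O2 comparisons, and no point is filled for gRc.

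Across the 6 libraries with H2O2 and the 6 without, 6 of the 10 genes did not overlap: Jag1 was higher, and Jag2, Dll1, Hes1, Hey1 and Heyl were lower. Over all genes tested 20.5% did not overlap in this way. In H2O2 against vehicle alone the same 6 genes did not overlap, and 31.1% of all genes did not.

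Within vehicle the genes fell into sets that ran in opposite order. Notch3, Jag2, Dll1, Hes6 and Hey1 were highest in vehicle 1 and lowest in vehicle 3, whereas Hes1 and Heyl were lowest in vehicle 1 and highest in vehicle 3. Vehicle 1 and vehicle 3 also lay far apart on the first principal component. Over the 12 libraries Pearson's r of log2 CPM, given as a description of points that share groups and library composition, was 0.95 between Notch3 and Hes6, 0.94 between Hes1 and Heyl, 0.08 between Hes1 and Hes6, and -0.95 between Jag1 and Heyl. Without vehicle 1, vehicle 3 and gRc 3 together, 5 of the 10 genes passed in H2O2 against vehicle (2272 of all genes there), a fit with 1 vehicle library that is assumed to vary like the other groups. There were 8 in gRc+H2O2 against gRc (5153 of all genes), where Notch3 (-0.82), Hes1 (-0.39) and Hes6 (-0.82) were added.

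The second question was whether gRc altered these genes. In unstressed cells none of the 10 passed in gRc against vehicle, as was the case for all genes (0%), and none passed in DESeq2. None of the 10 had an unadjusted p under 0.05 in edgeR, and only 0.499% of all genes did. Where nothing changed, a share near the threshold of 0.05 would be expected. The edgeR tests of gRc were thus conservative, and a p above 0.05 says little. The log2 fold changes ran from -0.30 for Dll1 to 0.20 for Jag1. The intervals were widest for Hes6, from -1.02 to 0.45, and narrowest for Jag1, from -0.12 to 0.51. No gene of the 10 separated the groups, and 1.61% of all genes did.

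Under stress, gRc+H2O2 against H2O2, edgeR called 0 of the 10 genes and 0% of all genes, and DESeq2 0 of the 10 and 2 of all genes. At an unadjusted p under 0.05 in edgeR were 1 of the 10 and 0.822% of all genes. The 1 gene was Hey1, at -0.49 (SE 0.22, unadjusted p = 0.0457, adjusted p = 0.922 in edgeR), and its 3 gRc+H2O2 values of 3.23 to 3.85 CPM were all under the H2O2 values of 4.51 to 5.55 CPM. Hes1 stood at 28.9 to 29.5 CPM with gRc+H2O2 and at 25.4 to 28.0 CPM with H2O2, again without overlap, at 0.13 (SE 0.15). Over all genes 15.3% did not overlap in this comparison, and 2 of these 10 genes did not. Hes6 (-0.47, SE 0.33) and Notch3 (-0.35, SE 0.27) overlapped between the groups. At each replicate number both were lower with gRc+H2O2 than with H2O2. Notch3 read 109, 92.6 and 112.5 against 154, 109 and 138.5 CPM, and Hes6 117, 110 and 156 against 206, 137 and 186 CPM. Neither passed in any of the 22 settings.

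In mean CPM the genes that moved most with H2O2 lay nearer the H2O2 level than the vehicle level after pretreatment. Heyl differed by 0.18 (95% interval -0.42 to 0.77), Dll1 by -0.18 (-0.78 to 0.43) and Jag1 by -0.09 (-0.40 to 0.23) between gRc+H2O2 and H2O2. Over the 22 settings Heyl ranged from 0.05 to 0.30, Dll1 from -0.58 to -0.06 and Jag1 from -0.12 to 0.14. These intervals and ranges do not show that the groups are alike. The interaction asks whether the H2O2 effect itself differed with gRc. In edgeR it put none of the 10 and 0.586% of all genes at an unadjusted p under 0.05. It called 0 of the 10 genes and 0% of all genes in edgeR, and 0 of the 10 and 1 of all genes in DESeq2. Its most distant value from 0 among the 10 was -0.51 (SE 0.31) for Hey1, with an unadjusted p = 0.122 and an adjusted p = 1 in edgeR.

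The wider pathway was read from a list of 71 other genes, of which 59 passed the filter. Those that did not, with at most 7 counts in any library, were the ligand-type genes Dll3, Dll4, Dlk1, Dner and Cntn1, the glycosyltransferase gene Mfng, Dtx1, and the targets Hes2, Hes3, Hes5, Hes7 and Hey2. In H2O2 against vehicle 4 of the 59 rose and 11 fell in edgeR, where 7.81% of all genes rose and 7.84% fell, and their median was -0.16. In gRc+H2O2 against gRc 4 rose and 12 fell, where 7.57% of all genes rose and 8.15% fell, and their median was -0.12. In gRc against vehicle, gRc+H2O2 against H2O2 and the interaction 0 of the 59 passed in edgeR and in DESeq2. At an unadjusted p under 0.05 in edgeR were 0, 1 and 0 of them, beside 0.499%, 0.822% and 0.586% of all genes.

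At the centre of the nuclear complex, Rbpj, the DNA-binding factor, read 18.5, 43.3 and 35.2 CPM in vehicle and 57.2, 80.05 and 62.5 CPM in H2O2. In gRc it read 34.9, 37.7 and 36.3 CPM and in gRc+H2O2 71.8, 75.3 and 70.0 CPM. Every library with H2O2 exceeded every library without it. Rbpj rose by 1.04 (SE 0.25) and by 1.00 (SE 0.25), at adjusted p = 0.0184 and 0.0223 in edgeR. The first call was lost without H2O2 2 (adjusted p = 0.0758), and the second without any 1 of the gRc or gRc+H2O2 libraries (0.0542 to 0.0766), with the fold change between 0.88 and 1.03. The first call was also lost with only the groups compared (1.02, adjusted p = 0.117, edgeR) and without vehicle 1, vehicle 3 and gRc 3 together (0.61, adjusted p = 0.0549), and the second with limma on TPM (0.72, adjusted p = 0.272).

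Other members of that complex moved both ways. The corepressor genes Tle3 (1.25), Spen (0.70) and Ctbp2 (0.60) rose in H2O2 against vehicle and also in gRc+H2O2 against gRc (1.20, 0.59 and 0.58). Tle2 (-1.34) and Tle6 (-1.0), of the same Groucho family as Tle3, and Kat2b (-1.13), a histone acetyltransferase recruited to the Notch complex, fell in both (-1.30, -1.36 and -1.37 with gRc). The Mastermind genes Maml2 (-1.59) and Maml3 (-1.10) fell in H2O2 against vehicle, and L3mbtl3 (-0.43), an RBPJ-binding repressor, in gRc+H2O2 against gRc. In H2O2 against vehicle the calls of Maml2 and Tle6 held in 10 of 22 settings and that of Maml3 in 11, and each was lost without vehicle 2, vehicle 3 or any 1 of the H2O2 libraries. Tle6 came to -0.34 there with limma on TPM (adjusted p = 0.776). The calls of L3mbtl3 and Spen in gRc+H2O2 against gRc held in 8 and 10 of 22 settings.

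Of the genes that act upstream, 2 of 6 other receptors, ligands and modulators, 2 of 14 processing genes and 2 of 14 ubiquitin and endocytosis genes fell in H2O2 against vehicle, beside 7.84% of all genes. The counts that fell were 2, 3 and 3 in gRc+H2O2 against gRc, beside 8.15% of all genes, and the others did not pass in edgeR. Lfng, the Fringe enzyme that adds sugar to Notch and tunes its choice of ligand, held 9.98, 12 and 10.1 CPM in vehicle and 4.20, 5.02 and 4.38 CPM in H2O2. Lfng fell by 1.24 (SE 0.16) and, in gRc+H2O2 against gRc, by 1.26 (SE 0.16). Aph1b, a subunit of gamma-secretase, changed by -0.71 and -0.88. The ubiquitin ligase genes Dtx4 (-0.95 and -1.09) and Neurl1b (-1.07 and -1.08), the latter of the Neuralized family that acts on ligands, fell in both, as did the secreted modulators Ccn3 (-0.80 and -0.65) and Mfap2 (-1.27 and -1.12). Mfap2 had at most 40 counts in any library and Neurl1b at most 76. The calls of Mfap2 held in 19 and 15 of 22 settings, and those of Neurl1b in 18 and 19. With limma on TPM Neurl1b came to -0.33 in H2O2 against vehicle (adjusted p = 0.144). Pofut1 (-0.77), which fucosylates Notch, and Neurl1a (-0.58) fell in gRc+H2O2 against gRc, while their values of -0.27 and -0.54 in H2O2 against vehicle did not pass. The call of Pofut1 held in 17 of 22 settings and was lost without gRc 1, gRc 2 or any 1 of the gRc+H2O2 libraries. That of Neurl1a held in 8 of 22 and was lost without gRc 1, gRc 3 or any 1 of the H2O2 or gRc+H2O2 libraries.

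Lfng, Dtx4, Kat2b and Tle2 passed under all 22 settings in both comparisons. The number of the 59 that passed ranged from 8 (without H2O2 3) to 18 (without vehicle 1) on leaving out 1 library in H2O2 against vehicle. It was 9 without H2O2 2. Of all genes, 1267 to 3108 passed in these fits. In gRc+H2O2 against gRc the number of the 59 ranged from 6 (without gRc+H2O2 3) to 19 (without vehicle 1), and that of all genes from 1186 to 3255. Of the 59, 8 passed there without gRc 1 or gRc+H2O2 2, and 10 without gRc 2 or gRc+H2O2 1.

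**Figure D3:**
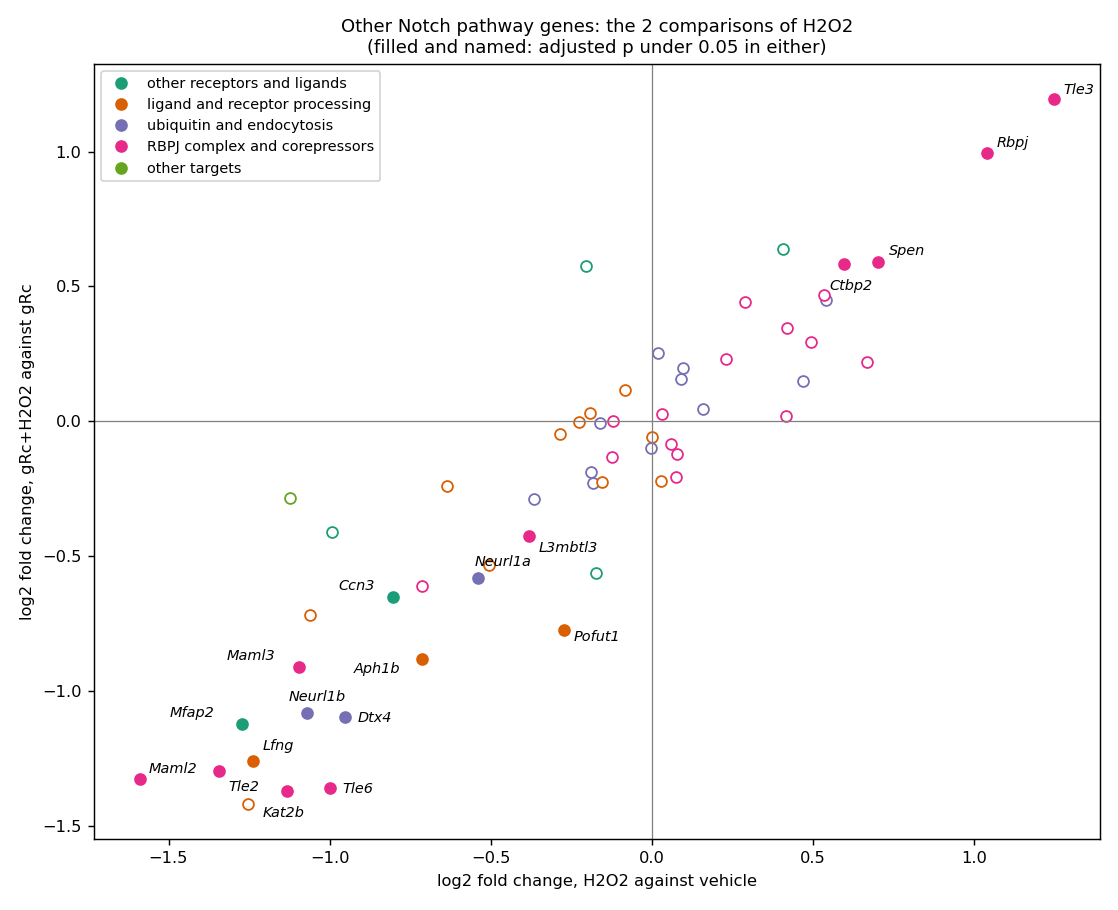
Log2 fold changes of the 59 other Notch pathway genes in H2O2 against vehicle (x axis) and in gRc+H2O2 against gRc (y axis), coloured by role. Filled and named points passed at an adjusted p under 0.05 in either comparison; Tle3 and Rbpj lie at the upper right, and Maml2, Tle2, Kat2b and Lfng at the lower left.

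Some genes outside the pathway followed the same profile over the 12 libraries. For the ligands and for the HES and HEY genes, the gene with the smallest p in H2O2 against vehicle was taken, and the 3 genes with the highest Pearson correlation of log2 CPM were found among 10841 genes. They were Per2 (0.996), Cdon (0.995) and Fndc1 (0.994) for Heyl, and Larp4 (0.983), Osbpl8 (0.981) and Fbxo30 (0.977) for Jag1. Cdon encodes a cell surface receptor of myogenic cells, and Per2 a component of the circadian clock. These values describe 12 libraries that share 4 groups and carry no test.

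**Figure D4:**
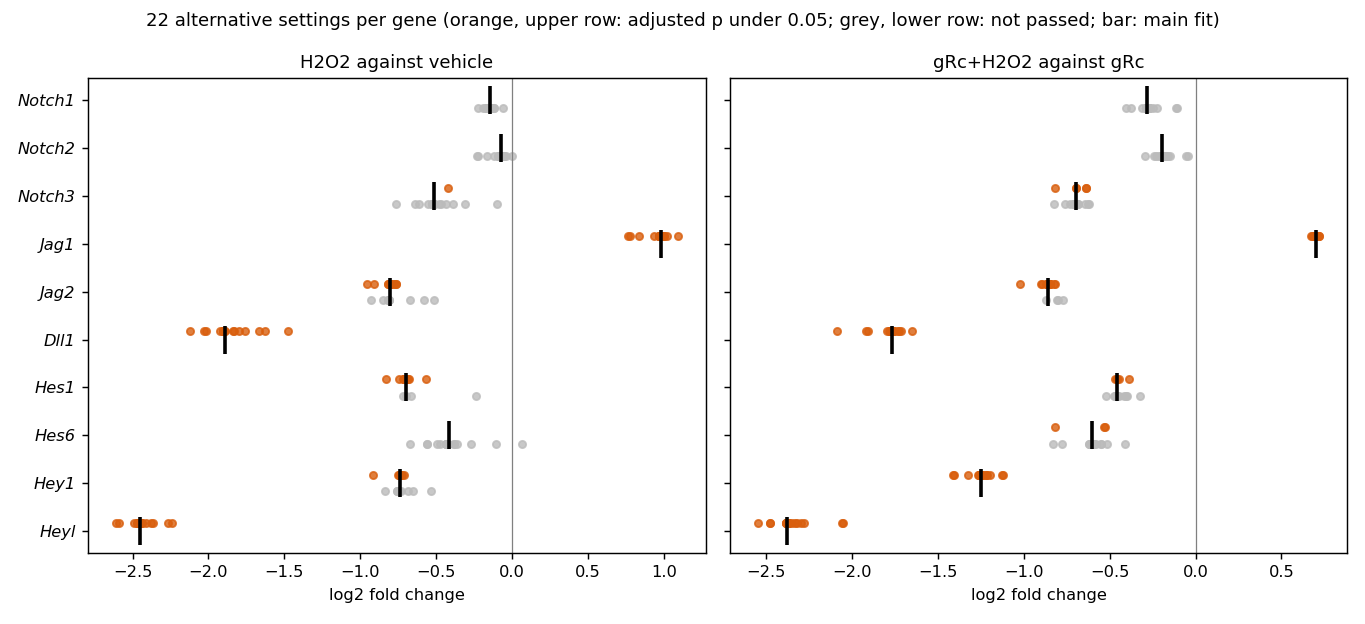
Log2 fold changes (x axis) of the 10 genes under 22 alternative settings in both H2O2 comparisons, orange (upper row of a gene) where the adjusted p is under 0.05 and grey (lower row) where it is not; the bar is the value in the text. Jag1, Dll1 and Heyl are orange throughout, while Jag2, Hes1 and Hey1 carry grey points in H2O2 against vehicle.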

How the data were processed

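RNA of 12 libraries was sequenced as paired ends from a poly-A, directional kit. After trimming, the authors used STAR 2.7.3a on GRCm38 and RSEM 1.3.3, and deposited expected counts and TPM. Whether counting used strand is not given in the sources used here. Expected counts were rounded, genes of low count removed (filterByExpr), and libraries scaled by TMM. All groups entered 1 quasi-likelihood fit in edgeR 4.0.16 (R 4.3.3), with p-values adjusted by Benjamini-Hochberg at 0.05. DESeq2 (1.42.0 here, with another version in the study) and limma 3.58.1 on log2(TPM + 0.5) were alternatives, beside other filters, samples and a GC correction. Scripts were tested on simulated data. The 10 genes, the other lists and the tests were chosen with earlier results of these data known. All 10 genes, the called genes of the pathway lists and Rbpj are named. The genes of like profile for the receptor are not reported here. Replicate numbers were taken to pair groups where deviations correlated above 0.1 at every number, which held for gRc and vehicle (0.460, 0.271 and 0.860) but not for gRc+H2O2 and H2O2 (0.0802, 0.402 and 0.309) or the others. Gene coordinates are from GENCODE M21 (GRCm38), the build of the files, and symbols were matched for 48349 of 48795 genes. No libraries were duplicates. The precision given covers the spread between 3 libraries a group.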

Additional observations from a re-analysis of the deposited data

How the results depend on the processing

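Each result was recomputed under 22 settings (21 for the interaction). Limma on TPM and the GC spline with the replicate block change more than 1 choice. In H2O2 against vehicle 3 of the 10 Notch genes and 739 of all genes (2323 in the fit reported) passed with only the groups compared, losing Jag2 (adjusted p = 0.127), Hes1 (0.0812) and Hey1 (0.133), and limma on TPM gave 1492 genes. Hes1 was also lost with the GC spline, alone (0.0686) and with the replicate block (0.0846). On leaving out 1 library the genes called ran from 1267 to 3108, and 2 fold changes turned: Hes6 ranged from -0.67 to 0.0646 and Notch2 from -0.17 to 0.0031. In gRc+H2O2 against gRc, 2332 genes became 1459 with limma on TPM and 5153 without vehicle 1, vehicle 3 and gRc 3, where 8 of the 10 passed instead of 5. Leaving out 1 library gave 1186 to 3255 genes. In gRc+H2O2 against H2O2, 2 genes were called by DESeq2, and 1 in the interaction. There Notch1 turned to 0.0330 with limma on TPM, 0.0407 with the GC spline and 0.0453 with the spline and block, Jag1 to 0.14 and Hes1 to -0.12 with limma on TPM, and on leaving out 1 library Notch1 ranged from -0.16 to 0.0086 and Notch2 from -0.0286 to 0.0509. The settings for the other pathway genes were added after seeing the data: 15 passed in H2O2 against vehicle, 5 with only the groups compared, 9 with limma on TPM, 9 without the 3 libraries together (which leaves 1 vehicle library, assumed to vary like the other groups) and 8 to 18 on leaving out 1. In gRc+H2O2 against gRc 16 passed, 10 with limma on TPM and 6 to 19 on leaving out 1. The cause of these changes was not tested, except that fits with fewer libraries have fewer residual degrees of freedom.

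Replicate numbers did not pair H2O2 with vehicle libraries (correlations 0.440, 0.294 and -0.283). With the replicate block 2305 genes passed there and 2354 in gRc+H2O2 against gRc, no call among the 10 genes changed, and gRc against vehicle stayed at 0 genes. Of the 6 libraries compared, 3 correlated best with their own number in H2O2 against vehicle, 4 in gRc against vehicle, 5 in gRc+H2O2 against H2O2 and 0 in gRc+H2O2 against gRc. In gRc against vehicle none of 220 values of the 10 genes passed under any setting, and none of 210 in the interaction. Hey1, with 97 to 274 counts a library, is the shallowest of the 10.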
